A study of Mus musculus with 30 samples.

Results

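*Sstr2*, *Kazald1*, *Gm266* and *4833422C13Rik* are 4 of the 55416 genes counted in fracture callus. They were selected on these same libraries, for lower values in P-Apex1KO than in WT mice at 2 or more of 6, 10 and 14 days post fracture (dpf), outside the gene families known for bone. With a call set at an adjusted p of 0.05 in edgeR's quasi-likelihood test, 690 of the 18537 genes tested at all 3 days met that condition, 107 of them at all 3 days and 583 at 2. *Sstr2*, *Kazald1* and *Gm266* met it at 3 days and *4833422C13Rik* at 2. Just outside it were *Ankrd50*, *Zfp362* and *Pced1a*, each called at 1 day only. At 6-, 10- and 14-dpf their log2 fold changes were -0.18, -0.40 and -0.75 for *Ankrd50*, -0.21, -0.40 and -0.92 for *Zfp362* and -0.41, -0.28 and -0.50 for *Pced1a*. Differences between the genotypes at 6-, 10- and 14-dpf therefore describe the 4 genes here and carry no test.

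Total RNA from callus around non-stabilized closed fractures of the left tibia of young adult mice was depleted of ribosomal and beta globin RNA and sequenced as stranded libraries. In P-Apex1KO mice (Prrx1-Cre+; Apex1 C/C), Prrx1-Cre deletes *Apex1* in limb bud mesenchyme, so blood, vessel and muscle cells of the callus keep the gene. WT littermates carried Apex1 C/C or Apex1 C/+ without Cre, or Prrx1-Cre+/- with Apex1 C/+, so that some of them may lack 1 copy in the same mesenchyme, and all groups carry floxed alleles. There were 4 WT (2 females) and 4 P-Apex1KO libraries (1 female) at 3-dpf, 5 WT (3 females) and 3 P-Apex1KO (1 female) at 6-dpf, 4 WT (2 females) and 3 P-Apex1KO (1 female) at 10-dpf, and 4 WT (1 female) and 3 P-Apex1KO (all female) at 14-dpf. The libraries held between 18334389 and 43111491 reads on genes, and levels are given as CPM, the reads of a gene scaled to a common total for all libraries, after TMM scaling over the 30 libraries. *Apex1* itself was 0.67 lower on the log2 scale in P-Apex1KO at 6-dpf (standard error (SE) 0.11, adjusted p = 0.00709) and 0.65 lower at 10-dpf (SE 0.13, adjusted p = 0.0278). At 3-dpf the log2 fold change of *Apex1* was -0.15 (adjusted p = 0.927). On that day 1 library labelled P-Apex1KO, replicate 4, held 34.6 CPM, more than any WT library. Replicates 2 and 3 of P-Apex1KO (29.05 and 27.62 CPM) lay within the WT range of 26.46 to 33.08 CPM, and replicate 1 (18.4 CPM) lay below it. At 14-dpf the log2 fold change was -0.29 (adjusted p = 0.367), with means of 24.03 CPM in WT and 15.95 CPM in P-Apex1KO. The highest P-Apex1KO library of 14-dpf (18.62 CPM) lay below the lowest WT library (19.81 CPM). With sex in the model, the fold change of that day leans on the only WT female. For *Apex1* at 10-dpf the adjusted p was 0.0828 without replicate 1 of WT and 0.104, 0.0571 and 0.0742 without replicates 1, 2 and 3 of P-Apex1KO.

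The 4 genes belong to different classes. Somatostatin receptors are G protein-coupled receptors for the peptides somatostatin and cortistatin. They act through inhibitory G proteins, which lower cyclic AMP, and SSTR2 is the receptor through which somatostatin restrains hormone release and cell growth in many tissues. KAZALD1 is a secreted matrix protein with an insulin-like growth factor binding protein (IGFBP)-like domain followed by a Kazal domain, a fold known from serine protease inhibitors. It was also named Bono1, for its expression in bone-forming cells and odontoblasts. *Gm266* is annotated as a protein-coding gene known by a provisional name, and *4833422C13Rik* as a long noncoding RNA (lncRNA).

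On GRCm39, *Sstr2* (ENSMUSG00000047904) lies on the plus strand of chromosome 11 from 113510145 to 113516862, inside an intron of *Slc39a11* on the other strand. *Kazald1* (ENSMUSG00000025213) lies on the plus strand of chromosome 19 from 45063399 to 45067728, within the span of the lncRNA *Gm35867* and sharing no exonic base with it. *Gm266* (ENSMUSG00000010529) is a single exon of 1215 bases on the minus strand of chromosome 12, from 111451043 to 111452257, between *Tnfaip2* and *Eif5*. *4833422C13Rik* (ENSMUSG00000074782) lies on the minus strand of chromosome 13 from 91849784 to 91889993. Its 3′ end shares 2377 exonic bases with *Ssbp2* and its 5′ end 239 with *Acot12*, both on the plus strand. For each of the 4 genes the 250 bases before its most upstream annotated start are shown, read from the reference genome. Capitals mark matches to the motifs searched on both strands: the AP-1 site TGANTCA, the cyclic AMP response element TGACGTCA, the hypoxia response element in its forms ACGTG or GCGTG, the RUNX site TGTGGT, the SOX site ACAAT, the GC box GGGCGG or the TATA box TATAAA.
Sstr2, chr11:113509895-113510144, plus strand: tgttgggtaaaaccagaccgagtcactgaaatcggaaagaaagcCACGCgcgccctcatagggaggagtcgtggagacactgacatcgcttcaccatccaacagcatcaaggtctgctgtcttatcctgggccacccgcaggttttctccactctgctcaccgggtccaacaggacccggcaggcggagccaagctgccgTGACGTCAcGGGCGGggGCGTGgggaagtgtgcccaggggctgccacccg
Kazald1, chr19:45063149-45063398, plus strand: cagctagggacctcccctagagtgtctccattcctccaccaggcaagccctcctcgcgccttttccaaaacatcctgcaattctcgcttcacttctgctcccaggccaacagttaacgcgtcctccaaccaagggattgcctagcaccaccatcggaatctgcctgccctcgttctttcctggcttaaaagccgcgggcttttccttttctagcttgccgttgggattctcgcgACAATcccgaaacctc
Gm266, chr12:111452258-111452507, minus strand: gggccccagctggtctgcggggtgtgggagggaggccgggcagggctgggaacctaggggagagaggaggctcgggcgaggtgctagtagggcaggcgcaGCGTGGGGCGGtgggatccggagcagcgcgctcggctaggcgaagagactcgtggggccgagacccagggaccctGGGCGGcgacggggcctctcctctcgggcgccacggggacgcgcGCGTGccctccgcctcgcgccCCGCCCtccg
4833422C13Rik, chr13:91889994-91890243, minus strand: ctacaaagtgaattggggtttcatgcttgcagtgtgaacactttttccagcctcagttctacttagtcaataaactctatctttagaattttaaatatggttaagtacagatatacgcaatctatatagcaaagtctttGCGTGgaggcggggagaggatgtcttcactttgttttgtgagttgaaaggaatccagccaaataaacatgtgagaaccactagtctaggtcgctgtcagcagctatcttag

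No motif was held by all 4 windows. The window of *Sstr2* held a whole cyclic AMP response element 50 bases before the start, which 1.1% of 31283 promoter windows of the same length hold, a GC box 41 bases before it and GCGTG on either strand at 206 and 33 bases. The *Gm266* window held GC boxes at 145, 75 and 10 bases and GCGTG at 150 and 31 bases, the GC box at 145 directly following the GCGTG at 150. GC boxes are in 25.0% of all windows and GCGTG in 25.3%. The *Kazald1* window held ACAAT at 16 bases, as 30.5% of windows do, and all of its 250 bases lie in exons of *Gm56659*, a lncRNA on the other strand that is annotated in GENCODE M39, reaches into *Kazald1* with 676 exonic bases and has no row in the count table. The window of *4833422C13Rik* held GCGTG at 111 bases. No window held the AP-1 letters, which 6.7% of windows hold. GC content was 76.8% for *Gm266*, 62.0% for *Sstr2*, 55.6% for *Kazald1* and 39.6% for *4833422C13Rik*.

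*Sstr2* was close to absent at 3-dpf and was high only in WT callus at 10- and 14-dpf. At 3-dpf the 4 WT libraries held 0.296, 0.125, 0.0753 and 0.117 CPM and the 4 P-Apex1KO libraries 0.158, 0.0936, 0.170 and 0.141 CPM, from 2 to 13 reads each. The genotypes overlapped there, and the gene did not pass the filter on low counts. At 6-dpf the 5 WT libraries held 0.844, 2.02, 1.11, 2.50 and 1.53 CPM and the 3 P-Apex1KO libraries 0.683, 0.379 and 0.211 CPM. Each WT library lay above each P-Apex1KO library, the closest pair being 0.844 and 0.683 CPM. At 10-dpf the WT libraries held 9.98, 8.96, 4.98 and 7.31 CPM and the P-Apex1KO libraries 0.859, 2.32 and 1.59 CPM. At 14-dpf the WT libraries held 6.62, 15.3, 17.5 and 13.6 CPM and the P-Apex1KO libraries 2.06, 0.722 and 0.666 CPM. The genotypes did not overlap on either day, and the lowest WT library of 14-dpf was the only female of its group.

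*Kazald1* was the most abundant of the 4 genes and was expressed in every library. At 3-dpf it had 6.12, 7.55, 7.34 and 7.20 CPM in WT and 2.71, 3.96, 8.75 and 6.82 CPM in P-Apex1KO. The P-Apex1KO libraries spread on both sides of the narrow WT range, with replicates 1 and 2 below it and replicate 3 above it. At 6-dpf it had 26.6, 14.1, 16.4, 16.1 and 13.4 CPM in WT and 9.09, 5.59 and 4.45 CPM in P-Apex1KO. At 10-dpf it had 57.1, 53.2, 34.4 and 61.6 CPM in WT and 19.6, 19.5 and 11.3 CPM in P-Apex1KO. At 14-dpf it had 121, 115, 98.6 and 96.7 CPM in WT and 12.6, 20.5 and 10.3 CPM in P-Apex1KO. The genotypes were apart from 6-dpf on, and the WT libraries of each later day lay above all of the day before, while the P-Apex1KO libraries of 14-dpf stayed within or near the range they had at 10-dpf.

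*Gm266* showed the same order at a lower level. At 3-dpf it had 1.55, 1.22, 0.677 and 0.852 CPM in WT and 0.600, 0.936, 1.13 and 0.884 CPM in P-Apex1KO, which overlapped. At 6-dpf the WT libraries held 2.56, 1.63, 1.91, 2.89 and 2.61 CPM and the P-Apex1KO libraries 0.615, 0.845 and 0.572 CPM. At 10-dpf the WT libraries held 3.99, 3.70, 3.20 and 4.44 CPM and the P-Apex1KO libraries 1.31, 1.10 and 1.36 CPM. From 6-dpf on the genotypes were apart. At 14-dpf the WT libraries held 6.67, 6.03, 5.00 and 6.69 CPM and the P-Apex1KO libraries 1.23, 1.16 and 1.09 CPM. The 3 P-Apex1KO libraries of 14-dpf, with a mean of 1.16 ± 0.07 CPM (standard deviation (SD), n = 3), lay within the WT range of 3-dpf.

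*4833422C13Rik* separated the genotypes later than the others. It had 2.98, 4.17, 3.27 and 2.62 CPM in WT and 3.57, 2.75, 2.61 and 2.40 CPM in P-Apex1KO at 3-dpf. It had 5.75, 6.12, 5.18, 3.65 and 4.40 CPM in WT and 3.28, 4.08 and 3.16 CPM in P-Apex1KO at 6-dpf. The genotypes overlapped on both of these days. At 10-dpf the WT libraries held 22.3, 22.5, 10.8 and 13.8 CPM, both females above both males, and the P-Apex1KO libraries 5.25, 3.76 and 3.80 CPM. At 14-dpf the WT libraries held 39.1, 39.7, 35.4 and 34.5 CPM and the P-Apex1KO libraries 7.95, 6.01 and 6.04 CPM. On both of the later days the genotypes were apart, and at 14-dpf the WT libraries differed from each other by less than at 10-dpf.

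**Figure D1:**
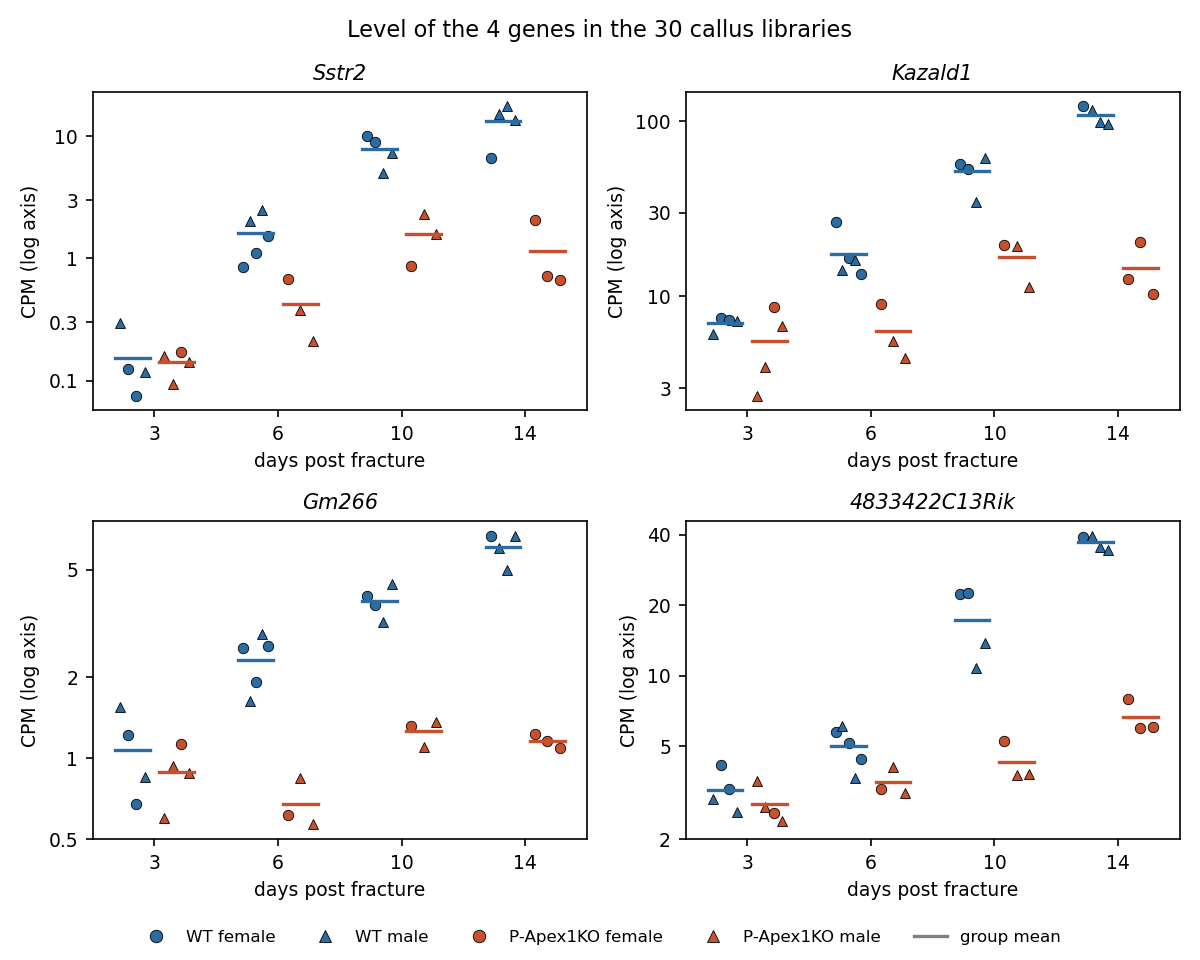
Level of each gene in CPM (log axis) by days post fracture. Each point is 1 library, blue for WT and red for P-Apex1KO, round for females and triangular for males, and bars are group means. At 3-dpf the genotypes overlap for all 4 genes, and at 14-dpf the lowest WT library lies above the highest P-Apex1KO library for each of them. The selection favours such gaps, and the share of all genes without overlap was not counted. At 14-dpf all P-Apex1KO libraries but only 1 WT library are female.

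In 11 of the 12 combinations of a gene and a day at 6-, 10- and 14-dpf the genotypes did not overlap, and the exception was *4833422C13Rik* at 6-dpf. The selection favours such gaps. The share of all genes without overlap was not counted, so nothing is read from this number. The mean WT level of *Sstr2* was 3.77, 4.90 and 11.6 times that in P-Apex1KO at 6-, 10- and 14-dpf. The ratio was 2.72, 3.08 and 7.47 for *Kazald1*, 3.43, 3.05 and 5.26 for *Gm266* and 1.43, 4.07 and 5.58 for *4833422C13Rik*. With sex in the model, the log2 fold change of *Sstr2* was -1.90 (SE 0.48), -2.22 (SE 0.38) and -2.45 (SE 0.48) on the 3 days, and that of *Kazald1* was -1.32 (SE 0.24), -1.57 (SE 0.26) and -3.04 (SE 0.30). It was -1.74 (SE 0.31), -1.59 (SE 0.21) and -2.49 (SE 0.25) for *Gm266* and -0.50 (SE 0.23), -1.85 (SE 0.15) and -2.52 (SE 0.16) for *4833422C13Rik*. All 4 genes had their largest difference at 14-dpf. The threshold called 3 of the 4 genes lower at 6-dpf, 4 at 10-dpf and 4 at 14-dpf, where it called 5.61%, 3.44% and 7.04% of all genes tested lower, and nothing is read from these counts, because the selection used the same contrasts. Since whole callus was sequenced, fewer cells that express a gene and less RNA per cell cannot be told apart.

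For *Sstr2* the size of the difference depended on single libraries and on sex. Without replicate 1 of P-Apex1KO the log2 fold change was -2.89 at 6-dpf, -1.65 at 10-dpf and -3.20 at 14-dpf, and without the sex term it was -3.44 at 14-dpf. With any 1 library left out it lay between -2.89 and -1.52 at 6-dpf and between -2.60 and -1.65 at 10-dpf. The threshold called *Sstr2* lower in 2 of 8 such fits at 6-dpf, 3 of 7 at 10-dpf and 5 of 6 at 14-dpf. It called *Kazald1* lower in 8 of 8, 4 of 7 and 6 of 6 such fits on the 3 days, and *Gm266* in 7 of 8, 5 of 7 and 6 of 6. For *4833422C13Rik* these were 0 of 8, 7 of 7 and 6 of 6. At 14-dpf the P-Apex1KO libraries were all female and the comparison within females rests on 1 WT library, so for each gene the value with sex in the model leans on that library. Genotype and sex can hardly be told apart on that day.

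**Figure D2:**
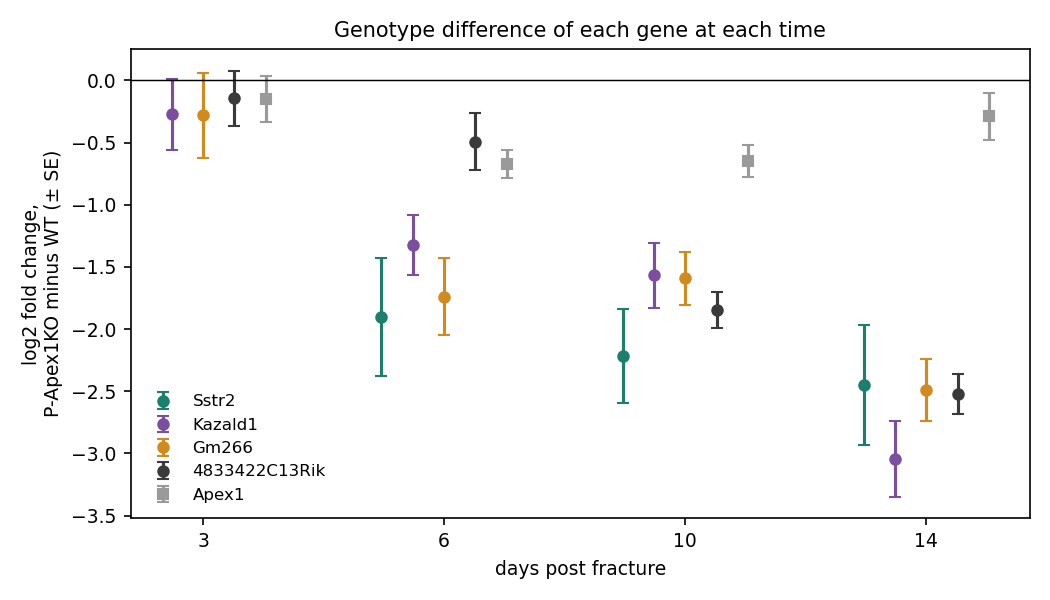
Log2 fold change of P-Apex1KO against WT (y axis) with its standard error, by days post fracture (x axis), for the 4 genes and for *Apex1* (squares), with sex in the model. *Sstr2* has no value at 3-dpf, where too few reads were counted. The other 3 genes lie between -0.28 and -0.14 at 3-dpf, and all 4 lie between -2.45 and -3.04 at 14-dpf, below *Apex1*. Their direction at 6-, 10- and 14-dpf was fixed by the selection.

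The comparison at 3-dpf was not part of the selection. None of the 3 genes tested was called: the log2 fold change was -0.27 for *Kazald1* (SE 0.29, adjusted p = 0.912), -0.28 for *Gm266* (SE 0.34, adjusted p = 0.927) and -0.14 for *4833422C13Rik* (SE 0.22, adjusted p = 0.943), by edgeR's test. Of the 19866 genes tested at 3-dpf, 0% were called lower and 0 higher, and 1216 had an unadjusted p under 0.05 in either direction. DESeq2 called 85 genes in either direction and none of the 3. Without the library labelled P-Apex1KO replicate 4, which held the most *Apex1* of that day, the values were -0.47, -0.28 and -0.09 for the 3 genes. Replicates 2 and 3 of P-Apex1KO, kept in that fit, were not low in *Apex1* either. Without any 1 library the value ranged from -0.56 to -0.09 for *Kazald1*, from -0.57 to 0.07 for *Gm266* and from -0.28 to 0.06 for *4833422C13Rik*.

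The change with time was compared within each genotype. The libraries of 6-, 10- and 14-dpf were the 2 sides of the contrasts used in the selection, which favours high WT and low P-Apex1KO values on those days, so these tests are not independent support for it in either genotype. From 3- to 6-dpf in WT callus, all 4 genes rose, where 15.4% of all genes tested did. *Sstr2* rose by 3.27 on the log2 scale (SE 0.46, adjusted p = 7.35e-05), which was 10.4 times its 3-dpf mean and starts from a handful of reads. *Kazald1* rose by 1.20 (SE 0.26, adjusted p = 0.00239) and *Gm266* by 1.06 (SE 0.28, adjusted p = 0.00918). *4833422C13Rik* rose by 0.59 (SE 0.19, adjusted p = 0.0307), a call that was lost without replicate 1, 3 or 4 of WT at 3-dpf (adjusted p = 0.0753, 0.0738 and 0.0969), without replicate 2 of WT at 6-dpf (adjusted p = 0.0676) and with library size alone as the scale (0.36, adjusted p = 0.189).

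From 3- to 6-dpf in P-Apex1KO callus none of the 4 genes was called, where 7.1% of all genes tested were called higher. *Sstr2* came closest, with a log2 fold change of 1.61 (SE 0.54, adjusted p = 0.0588). It was called by DESeq2 (1.64, adjusted p = 0.0361) and without replicate 3 of P-Apex1KO at 6-dpf (2.03, adjusted p = 0.0228), while without replicate 1 of that group it was 0.85 (adjusted p = 0.353). The values were 0.16 (SE 0.29) for *Kazald1*, -0.38 (SE 0.33) for *Gm266* and 0.31 (SE 0.22) for *4833422C13Rik*, with adjusted p of 0.773, 0.502 and 0.396. Those of the other 3 genes were small beside *Sstr2* and of either sign.

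From 10- to 14-dpf in WT callus, 3 of the 4 genes rose, where 6.19% of all genes tested did. *4833422C13Rik* rose by 1.28 on the log2 scale (SE 0.15, adjusted p = 0.000367), *Kazald1* by 1.11 (SE 0.23, adjusted p = 0.0101) and *Gm266* by 0.68 (SE 0.16, adjusted p = 0.0142). The call of *Gm266* was lost without replicate 3 of WT at 10-dpf (adjusted p = 0.069), without replicate 1 of WT at 14-dpf (adjusted p = 0.0626) and with all samples in one model (adjusted p = 0.0505). *Sstr2* had a log2 fold change of 0.61 (SE 0.41, adjusted p = 0.401). In P-Apex1KO callus none of the 4 was called over the same interval, where 0.0304% of all genes tested were called higher. The log2 fold changes there were -0.20 (SE 0.60) for *Sstr2*, -0.38 (SE 0.30) for *Kazald1*, -0.17 (SE 0.23) for *Gm266* and 0.31 (SE 0.20) for *4833422C13Rik*. Whether the change with time differed between the genotypes was not tested, because that contrast holds the differences used in the selection. Libraries of 6- and 10-dpf were not compared by a test, since the style of the sample names changes between them.

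**Figure D3:**
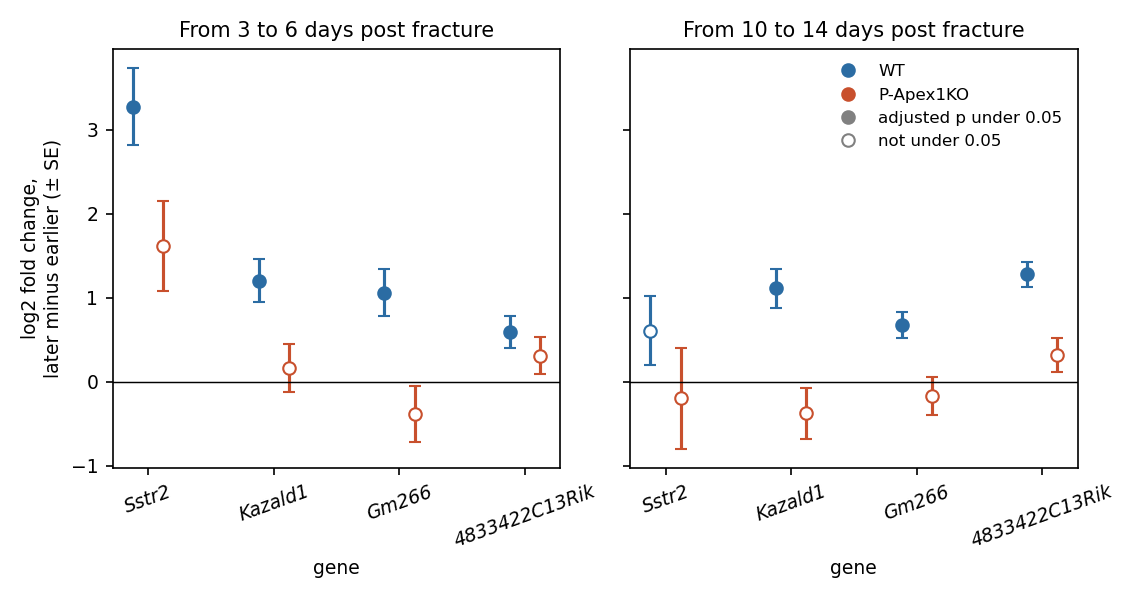
Change of each gene from 3 to 6 (left) and from 10 to 14 days post fracture (right), as log2 fold change of the later against the earlier day (y axis) with its standard error, in WT (blue) and P-Apex1KO (red). Filled points had an adjusted p under 0.05. The filled points are the 4 WT values on the left and 3 of the 4 WT values on the right. The selection used the libraries of 6-, 10- and 14-dpf, and whether the change differed between the genotypes was not tested.

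Over the whole course the mean level of *Sstr2* at 14-dpf was 86.4 times that at 3-dpf in WT and 8.17 times in P-Apex1KO, or 4.93 times without replicate 1 of P-Apex1KO at 14-dpf. The ratio was 15.3 and 2.60 for *Kazald1*, 11.4 and 2.36 for *4833422C13Rik* and 5.67 and 1.31 for *Gm266*. These ratios have no test and span the change in the style of the sample names. Per kilobase of exon (RPKM), a scale on which genes can be compared, *Kazald1* led in every group. At 14-dpf in WT it had 36.1 ± 4.06 RPKM (SD, n = 4), ahead of *Sstr2* with 6.10 ± 2.17, *4833422C13Rik* with 5.90 ± 0.42 and *Gm266* with 5.02 ± 0.65 RPKM, which did not differ beyond their spread. At 3-dpf in WT the order was *Kazald1* with 2.36 ± 0.21 RPKM, *Gm266* with 0.885 ± 0.32, *4833422C13Rik* with 0.517 ± 0.11 and *Sstr2* with 0.0706 ± 0.04 RPKM. *Sstr2* thus went from the last place to a level like that of the other two less abundant genes.

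No gene of the 4 was called between the sexes over all 30 libraries, where 0.635% of all genes tested were called in either direction. The level in males minus that in females was -0.40 on the log2 scale for *Kazald1* (SE 0.15, adjusted p = 0.212), -0.27 for *4833422C13Rik* (SE 0.11, adjusted p = 0.257), 0.37 for *Sstr2* (SE 0.25, adjusted p = 0.526) and -0.04 for *Gm266* (SE 0.13, adjusted p = 0.934). Before adjustment the p of edgeR's test over the 30 libraries was 0.0122 for *Kazald1* and 0.0209 for *4833422C13Rik*, and DESeq2 called none of the 4.

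*Sstr2* was the only somatostatin system gene with an appreciable level. No read of *Sst*, which encodes somatostatin, was counted in any of the 30 libraries, so that a level of up to 0.0696 CPM in the largest and 0.164 CPM in the smallest library is allowed by counting error alone. *Cort*, the gene of cortistatin, had at most 8 reads in a library, and *Sstr1*, *Sstr3* and *Sstr5* had at most 12, 3 and 2. *Sstr4* was the only other gene of the system to pass the filter, on 3 of the 4 days, and it was not called. Its group means lay between 0.0832 and 0.413 CPM, under the WT mean of *Sstr2* at 6-, 10- and 14-dpf.

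Of the 6 genes for proteins that act below SSTR2, the inhibitory G protein alpha subunits and the phosphatases SHP-1 and SHP-2, all passed the filter on every day and 0 were called at 3-dpf. *Gnai1*, which encodes an inhibitory alpha subunit, was the only one called lower. It had 41.2 ± 8.64 CPM (SD) in the 4 WT and 23.0 ± 2.06 CPM in the 3 P-Apex1KO libraries at 10-dpf, a log2 fold change of -0.76 (SE 0.14, adjusted p = 0.0238). At 14-dpf it had 75.5 ± 7.82 CPM in WT and 22.7 ± 3.47 CPM in P-Apex1KO, a log2 fold change of -1.84 (SE 0.17, adjusted p = 0.00111). In WT *Gnai1* rose from 10- to 14-dpf by 0.94 on the log2 scale (SE 0.13, adjusted p = 0.000923), where *Sstr2* was not called. The call at 10-dpf was lost without replicate 1 or 2 of WT or replicate 1 or 3 of P-Apex1KO (adjusted p = 0.0811, 0.0729, 0.179 and 0.0642), and the call at 14-dpf held in all 6 fits that left out 1 library. *Ptpn6*, the gene of SHP-1, was higher at 6-dpf by 0.49 (SE 0.13, adjusted p = 0.0437), a call that held in 2 of the 8 fits that left out 1 library.

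Other genes of the domain class of *Kazald1* were not part of the selection. Of the 5 such genes for proteins in which an IGFBP-like domain precedes a Kazal domain, *Igfbp7*, *Htra1*, *Htra3* and *Htra4* passed the filter and *Igfbpl1* did not, and 0 were called lower on any day. *Htra1* and *Htra3* encode secreted serine proteases. *Htra1* had 112 ± 10.9 CPM (SD) in the 4 WT and 85.0 ± 28.4 CPM in the 3 P-Apex1KO libraries at 14-dpf, and *Htra3* had 90.7 ± 8.50 and 63.4 ± 17.6 CPM. *Htra4* was called higher in P-Apex1KO at 6-dpf (2.09, SE 0.46, adjusted p = 0.0222), with 2.24 ± 1.05 CPM in WT and 8.93 ± 9.09 CPM in P-Apex1KO. It was called higher at 14-dpf too (1.95, SE 0.37, adjusted p = 0.0162), with 1.38 ± 0.34 CPM in WT and 3.71 ± 0.49 CPM in P-Apex1KO. Without replicate 1 of P-Apex1KO at 6-dpf the value of *Htra4* fell to 1.33 (adjusted p = 0.26), and the call was lost as well without replicate 2 of WT (adjusted p = 0.0573) or of P-Apex1KO (adjusted p = 0.0628). In WT from 3- to 6-dpf *Htra1* rose by 1.37 (SE 0.22, adjusted p = 0.000388), *Htra3* by 1.31 (SE 0.21, adjusted p = 0.000323) and *Igfbp7* by 0.98 (SE 0.19, adjusted p = 0.0015), as *Kazald1* did. In P-Apex1KO *Htra1* rose by 1.10 (SE 0.24, adjusted p = 0.00952) and *Htra3* by 1.12 (SE 0.23, adjusted p = 0.00598) over the same interval, and *Igfbp7*, at 0.67 (SE 0.21, adjusted p = 0.0515), was not called.

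Among 11 further extracellular proteins with Kazal-like domains, 3 were called lower and 1 higher at 6-dpf, 0 lower and 1 higher at 10-dpf, and 2 lower and 2 higher at 14-dpf, with medians of -0.14, 0.05 and 0.25 beside 0.01, -0.0031 and 0.04 over all genes tested. *Sparc*, a major bone matrix glycoprotein, was lower at 6-dpf (-0.83, SE 0.23, adjusted p = 0.0482) and 14-dpf (-1.44, SE 0.18, adjusted p = 0.00321). *Fst*, the activin antagonist follistatin, was higher at 10-dpf (0.78, SE 0.15, adjusted p = 0.0273) and 14-dpf (1.17, SE 0.25, adjusted p = 0.0255). The other called genes were *Reck*, an inhibitor of matrix metalloproteinases, at -0.79 at 6-dpf, *Agrn*, the proteoglycan agrin, at -0.81 at 6-dpf and -0.63 at 14-dpf, *Tmeff2* at 1.11 at 6-dpf and *Fstl3*, a relative of follistatin, at 1.52 at 14-dpf, which was 0.48 without the sex term (adjusted p = 0.284). The calls of *Sparc* at 6-dpf and of *Fst* at 10- and 14-dpf held in 1 of 8, 4 of 7 and 3 of 6 fits that left out 1 library, those of *Agrn* and *Fstl3* at 14-dpf in 3 of 6 each, and those of *Tmeff2*, *Reck* and *Agrn* at 6-dpf in 5, 6 and 7 of 8, while that of *Sparc* at 14-dpf held in 6 of 6.

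*Acot12*, which encodes an acetyl-CoA thioesterase, starts opposite *4833422C13Rik*, so that the first 598 bases of the 2 genes overlap head to head. It had 0.323 ± 0.13 CPM (SD) in the 4 WT and 0.135 ± 0.03 CPM in the 4 P-Apex1KO libraries at 3-dpf, and 0.276 ± 0.18 CPM in WT and 0.288 ± 0.24 CPM in P-Apex1KO at 6-dpf. At 10-dpf it had 2.11 ± 0.96 CPM in WT and 0.522 ± 0.21 CPM in P-Apex1KO, and the log2 fold change was -1.84 (SE 0.35, adjusted p = 0.0245). At 14-dpf it had 5.95 ± 1.96 CPM in WT and 0.924 ± 0.33 CPM in P-Apex1KO, and the log2 fold change was -3.23 (SE 0.32, adjusted p = 0.00143). Both genes of the pair were therefore called lower at 10- and 14-dpf and not at 6-dpf, and *Acot12* rose from 10- to 14-dpf in WT by 1.72 on the log2 scale (SE 0.24, adjusted p = 0.000994). The call of *Acot12* at 10-dpf held in 2 of the 7 fits that left out 1 library and the call at 14-dpf in all 6. Reads were counted by strand, which separates the 2 genes as far as the libraries keep the strand, and reads of *Acot12* were between 0.12 and 0.16 times those of *4833422C13Rik* in mean CPM over the 4 groups of 10- and 14-dpf.

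**Figure D4:**
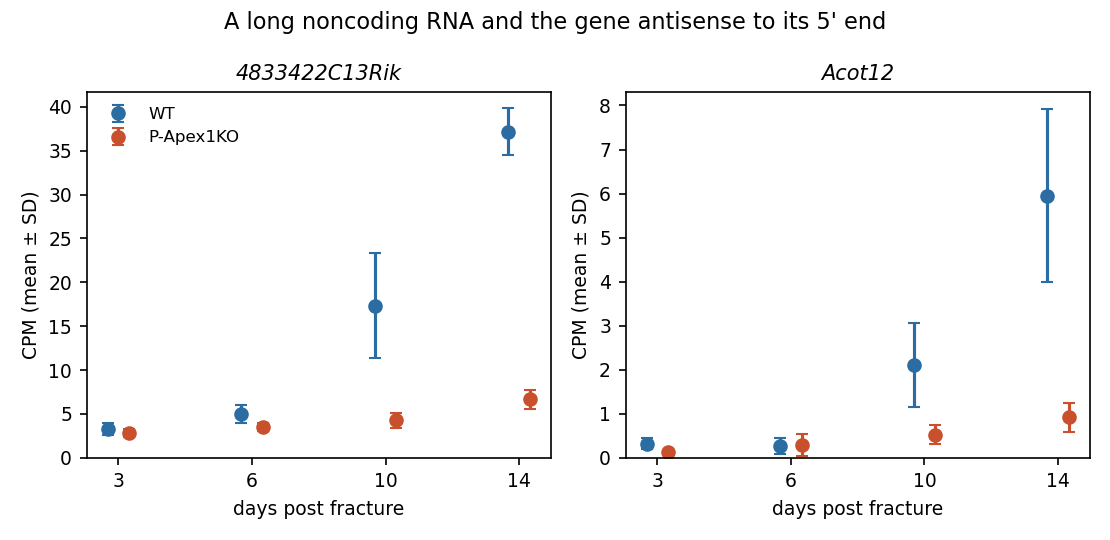
Mean level in CPM (y axis) with the standard deviation of *4833422C13Rik* (left) and of *Acot12*, the gene on the other strand that overlaps its first bases (right), by days post fracture, in WT (blue) and P-Apex1KO (red). Groups hold 3 to 5 libraries. In WT both genes are highest at 14-dpf, at 37.2 and 5.95 CPM.

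*Ssbp2*, which overlaps the 3′ end of *4833422C13Rik* by more exonic bases than *Acot12* does the 5′ end, was not called on any day, with log2 fold changes of 0.02 at 6-dpf, 0.37 at 10-dpf (adjusted p = 0.0562) and 0.54 at 14-dpf (adjusted p = 0.0992). *Slc39a11*, the zinc transporter gene around *Sstr2*, was lower at 14-dpf by 0.69 on the log2 scale (SE 0.13, adjusted p = 0.016), less than *Sstr2*, and not called on the other days. With library size alone as the scale it was not called at 14-dpf (-0.42, adjusted p = 0.0851). *Gm35867*, around *Kazald1*, had at most 14 reads in a library. None of the nearest genes on either side of the 4 that passed the filter, among them *Cog1*, *Sfxn3*, *Tnfaip2* and *Eif5*, was called on any day.

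Markers of other cell types moved with the same comparisons. Of 14 osteoblast markers, 12, 10 and 10 were called lower in P-Apex1KO at 6-, 10- and 14-dpf, and their summed level was 59030 to 81260 CPM in WT and 26740 to 42160 CPM in P-Apex1KO at 6-dpf, 74610 to 99920 and 34000 to 50070 CPM at 10-dpf, and 125600 to 171300 and 32450 to 33330 CPM at 14-dpf. Of 8 osteoclast markers 0, 5 and 8 were called lower, with sums of 3512 to 8029 CPM in WT and 1361 to 2202 CPM in P-Apex1KO at 10-dpf, and 12690 to 14350 CPM in WT and 1881 to 3433 CPM in P-Apex1KO at 14-dpf. Of 14 cartilage markers 14 were called lower at 6-dpf, 0 at 10-dpf, and 2 lower and 12 higher at 14-dpf, with sums of 37180 to 66080 and 3267 to 6270 CPM at 6-dpf. At 14-dpf the cartilage sums overlapped, at 4709 to 9730 CPM in WT (median 8306) and 6318 to 7355 CPM in P-Apex1KO (median 6579). The calls of that day were made with sex in the model and, for every list, lean on the only WT female. Of 12 skeletal muscle markers 10 were called higher at 6-dpf and 0 on the other days, with medians of 0.97, 1.42, 1.46 and 0.86 at 3-, 6-, 10- and 14-dpf and sums of 1425 to 4388 CPM in WT and 3928 to 8771 CPM in P-Apex1KO at 10-dpf. Of 9 endothelial markers 0, 1 and 5 were called lower, with sums of 931.9 to 1008 CPM in WT and 607.7 to 694.7 CPM in P-Apex1KO at 14-dpf. No gene of the 14 lists was called at 3-dpf, where 0 of all 19866 genes tested were called lower and 0 higher, so nothing about cell types is read from this. Of 8 hypertrophic cartilage markers 7, 3 and 1 were called lower at 6-, 10- and 14-dpf and 2 higher at 14-dpf, and of 7 osteocyte markers 2, 2 and 4 were called lower and 3 higher at 6-dpf. Of 7 limb mesenchyme markers 1, 2 and 3 were called lower. Blood and immune lists moved the other way: of 9 macrophage markers 6, 5 and 6 were called higher and 2 lower at 14-dpf, of 10 lymphocyte markers 4, 1 and 1 higher, and at 14-dpf 6 of 8 neutrophil and 4 of 7 erythroid markers. Over all genes, 1075 of the 20260 tested at 6-dpf, 570 of 18910 at 10-dpf and 865 of 20228 at 14-dpf were called higher. Of 7 adipocyte markers 5, 5 and 0 were called higher, and of the 5 neuron and Schwann cell markers tested 4, 3 and 0. No marker of the osteoblast, osteoclast, cartilage, muscle and endothelial lists was without reads in a whole group. The part of these cell types in the differences of the 4 genes was not tested.

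Within groups, the deviations of log2 CPM from the group mean were related to those of 14 marker lists and to each other, 62 relations in all, by Pearson's r with a permutation test that shuffled libraries within groups. These deviations were not used in the selection. Sex was not removed from them, and libraries of both sexes were shuffled together, so a sex difference shared by a gene and a list stays in r. For *Kazald1*, r with the osteoblast list was 0.834 over the 30 libraries (p = 1e-05, the smallest that 100000 permutations can give, adjusted p = 0.00062), and Spearman's rho was 0.837 (p = 2e-05, adjusted p = 0.00124). Without the 2 libraries farthest from the median of the list, r was 0.819. It was 0.874 within the 16 libraries of 3- and 6-dpf, where it passed the threshold. It was 0.861 within the 14 libraries of 10- and 14-dpf and 0.852 in the 17 WT libraries, and passed in neither. Over the 30 libraries *Kazald1* thus tracked the osteoblast markers among libraries of 1 genotype and 1 day. In the 17 WT libraries the relations of *Kazald1* that passed were negative, with cartilage (r = -0.586) and hypertrophic cartilage (r = -0.47). These 2 were 0.098 and 0.301 over the 30 libraries.

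*Gm266* and *Sstr2* were related to other lists. For *Gm266* and the endothelial list r was 0.639 (permutation p = 0.00254, adjusted p = 0.0352) and rho 0.549 (permutation p = 0.0105, adjusted p = 0.0926). It was 0.628 without the 2 farthest libraries, 0.752 within 3- and 6-dpf and -0.07 within 10- and 14-dpf, so the relation did not hold on the later days. For *Sstr2* and the hypertrophic cartilage list r was 0.543 (permutation p = 0.00234, adjusted p = 0.0352), rho was 0.673 (permutation p = 0.00025, adjusted p = 0.00775), and r was 0.664 without the 2 farthest libraries, 0.394 within 3- and 6-dpf and 0.772 within 10- and 14-dpf. For *Sstr2* and the cartilage list r was 0.519 (permutation p = 0.00417, adjusted p = 0.0431) and rho 0.507 (permutation p = 0.00664, adjusted p = 0.0768). For *Sstr2* and skeletal muscle r was -0.636 (permutation p = 0.00281, adjusted p = 0.0352) and rho -0.607 (permutation p = 0.00291, adjusted p = 0.0451), and r was -0.504 without the 2 farthest libraries, -0.25 within 3- and 6-dpf and -0.871 within 10- and 14-dpf. For *Sstr2* and the erythroid list r was -0.399 (permutation p = 0.00284, adjusted p = 0.0352) and rho -0.545 (permutation p = 0.00216, adjusted p = 0.0446), and r was -0.410 without the 2 farthest libraries, -0.476 within 3- and 6-dpf and -0.459 within 10- and 14-dpf. The cartilage value was 0.434 without the 2 farthest libraries, 0.518 within 3- and 6-dpf and 0.522 within 10- and 14-dpf. Without the 2 farthest libraries the relations of *Sstr2* with the cartilage, muscle and erythroid lists and of *Gm266* with the endothelial list no longer passed the threshold, although r stayed at 0.628 for *Gm266* with the endothelial list and at -0.410 for *Sstr2* with the erythroid list. With library size alone as the scale the relation of *Kazald1* with the osteoblast list was the only one that passed. In the 17 WT libraries alone 7 relations passed, of which 2, those of *Sstr2* with the hypertrophic cartilage and erythroid lists, were among these 6.

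**Figure D5:**
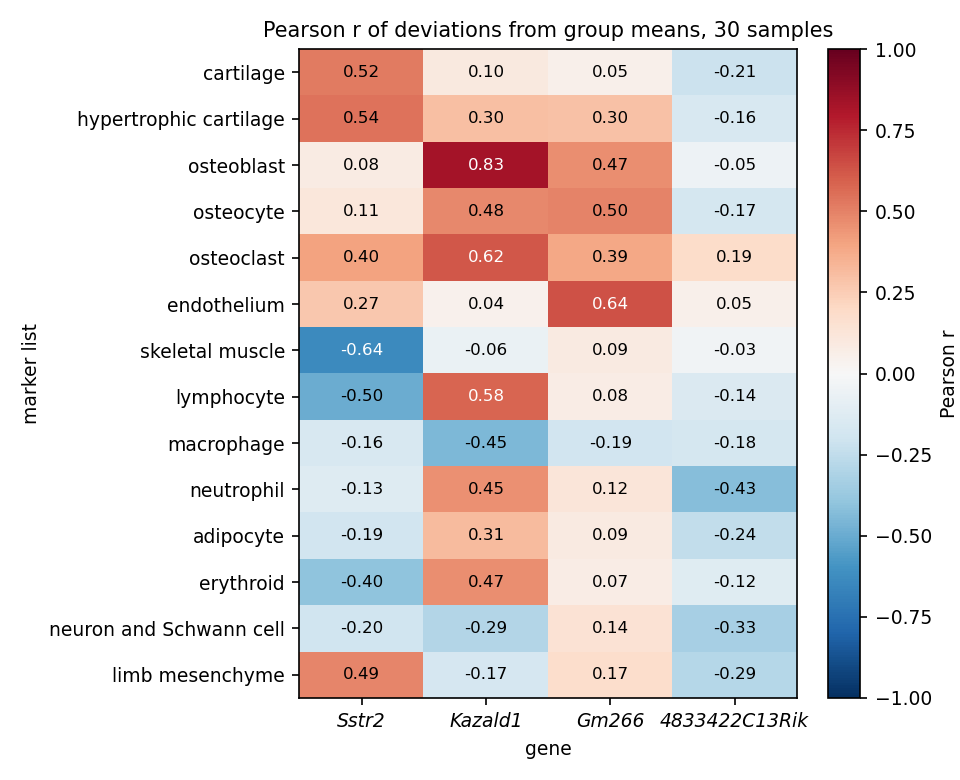
Pearson's r between the deviation of each gene (columns) and of each marker list (rows) from its group mean over the 30 libraries, from -1 (blue) to 1 (red). The largest value is that of *Kazald1* and the osteoblast list, 0.83, and the column of *4833422C13Rik* holds no relation that passed the test.

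Among themselves the 4 genes showed no relation within groups. The r of the 6 pairs lay between -0.07 for *Gm266* with *4833422C13Rik* and 0.296 for *Kazald1* with *Gm266*, and none passed (adjusted p = 0.84 and 0.435, permutation test). For *4833422C13Rik* no list passed over the 30 libraries, and in the 17 WT libraries alone its r with the limb mesenchyme list was -0.724 (permutation p = 0.00151, adjusted p = 0.0312). Out of 15934 genes averaging 1 CPM or more, the genes most like *Kazald1* within groups were *Entpd3* (r = 0.932), an ectonucleotidase gene, *Col22a1* (0.920), a collagen gene, and *Lipc* (0.902), the hepatic lipase gene. For *Sstr2* they were *Acbd3* (0.778), *Tnfsf11* (0.774), the gene of the osteoclast differentiation factor RANKL, and *Slc30a5* (0.763). For *Gm266* they were *Paqr4* (0.795), *Oxa1l* (0.735) and *Robo4* (0.709), a receptor gene of endothelial cells that is also in the endothelial list. For *4833422C13Rik* they were the lncRNA *Firre* (0.775), *Cd2ap* (0.759) and the lncRNA *Ppnr* (0.758). These are the highest of many values over the same 30 libraries and are given as a description.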

How the data were processed

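RNA of fracture callus from 30 samples was measured in 8 groups of genotype and day. The authors deposited 1 table of raw counts per gene. Per the labels and the study's methods, reads were demultiplexed with bcl2fastq 2.20, aligned to mm39 with STAR 2.7.0d and counted by gene and strand with featureCounts from uniquely mapped reads, and the study used DESeq2 1.32.0. Groups came from the labels, and 0 columns were left unmatched. The labels do not say that samples are separate animals, so p-values measure the spread between samples.

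The 4 genes, the gene lists and the tests were chosen with earlier results of these data known. Genes were filtered with filterByExpr, scaled by TMM and tested per comparison with edgeR 4.0.16 (R 4.3.3, limma 3.58.1), using the quasi-likelihood F test with robust estimation, sex as a covariate and, for every comparison, p adjusted by Benjamini-Hochberg across its whole table, with a threshold of 0.05. SE is the log2 fold change over the square root of F. For the 4 genes at 6-, 10- and 14-dpf the fit is given without p. Time changes came from 4 groups fitted together and sex from all samples. Relations used log2 CPM (prior count 2) less the group mean, without a sex term, with two-sided permutation tests (100000 resamples) adjusted over 62 relations. Exon lengths, positions and promoters came from GRCm39 with GENCODE M39. Scripts were tested on simulated data. Alternatives were DESeq2 1.42.0, its size factors, library size alone, no filter, at least 10 counts in every sample, no sex term, all samples in one model, a replicate block and leaving out each sample. The relations within 3- and 6-dpf and within 10- and 14-dpf were added after the data were seen. Genes named were the 4, called members of their family lists, overlapping and nearest genes, and the 3 genes most alike within groups. Intervals and floors cover counting error only.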

Additional observations from a re-analysis of the deposited data

Results flagged for a closer look

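Of 20 groups of 4 or 5 libraries examined for the 4 genes, 1 held a library far from the others. *Kazald1* had 26.6 CPM in replicate 1 of WT at 6-dpf, and the gap to the next library was 0.770 of the range of the 5 libraries, above the critical value of 0.71. Chance alone marks about 1 in 20 such groups.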

How the results depend on the processing

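The number of the 4 genes called at 3-dpf stayed 0 and the number called from 10- to 14-dpf in P-Apex1KO stayed 0 under every alternative run. From 3- to 6-dpf in P-Apex1KO it was 1 with DESeq2 and 0 to 1 when 1 library was left out, and between the sexes it was 1 with the replicate block (*Kazald1*, -0.65, adjusted p = 0.0337). With 1 library left out it was 3 to 4 from 3- to 6-dpf and 2 to 3 from 10- to 14-dpf in WT. Of the 12 differences between genotypes, 11 had a value with at least 10 counts in every sample, where *Sstr2* at 6-dpf was not tested. The 6 relations within groups became 2 without the 2 farthest libraries, 1 with library size alone, 2 within 3- and 6-dpf and 0 within 10- and 14-dpf.

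Leaving out 1 library turned the sign of small values that were not called. These ranged from -0.57 to 0.07 for *Gm266* and from -0.28 to 0.06 for *4833422C13Rik* at 3-dpf, from -0.03 to 0.36 for *Kazald1* from 3- to 6-dpf and from -0.94 to 0.10 for *Sstr2* from 10- to 14-dpf in P-Apex1KO, and from -0.11 to 0.02 for *Gm266* between the sexes. The cause was not tested. Library size alone moved the median of all genes by 0.19 at 6-dpf and 0.27 at 14-dpf on the log2 scale.

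Replicate numbers did not pair the samples, with correlations of same-numbered libraries from -0.251 to 0.392. With the number as a block in place of sex, *Sstr2* was at -3.46 at 14-dpf, and 1, 4 and 3 of the 4 genes were called lower at 6-, 10- and 14-dpf. The calls at 3-dpf and over time did not change. Between the sexes the block was added to the model beside sex, and only the call of *Kazald1* above changed. The fit of 14-dpf without replicate 1 of WT could not be made with sex, that library being the only WT female.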
